A study of Mus musculus with 6 samples.

Results

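The genes described here encode subunits of the mitochondrial respiratory chain, complexes I to IV, and of ATP synthase, complex V, and were read in isolated kidney glomeruli of mice with and without the Yaa mutation. Members were chosen by name alone. Every probe that was not a control spot was taken where its gene name matched the rule. The name had to be Nduf followed by a, b, c, s or v and a number, with nothing after the number, or an Sdh subunit name. Names that began with Uqcr, with Cox4 to Cox8 or with Atp5 were taken too. This gave 84 genes of the 34844 gene names on the array, held by 127 of its 55681 probes. There were 36 genes of complex I, 4 of complex II, 8 of complex III, 19 of complex IV and 17 of complex V. The name rule also took 3 genes that are not subunits (Cox4nb, Atp5s and Atp5sl, now named Emc8, Dmac2l and Dmac2), which are counted as members and described apart.

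The Yaa group was 3 arrays of male BXSB/MpJ-Yaa mice aged 4 months, a model of lupus-like glomerulonephritis, and the control group was 3 arrays of male BXSB/MpJ-Yaa+ mice of the same age. Both strains share the BXSB background, bred from a C57BL/6 female and an SB/Le male. They differ in the Y chromosome, onto which a segment of the X chromosome is copied in Yaa and which is wild type in the control. Each array held RNA of 2 pooled glomerular populations, isolated after perfusion with beads, out of 6 populations per strain. The whole Y chromosome differs between the groups and no single gene of the copied segment is isolated by the design. The source name contradicted the title, description and genotype of each sample by naming the opposite strain, and the latter 3 were used. Tlr7, a gene of the copied segment, was higher in the Yaa arrays by 0.91 (limma adjusted p = 0.00693), a call lost without control replicate 1 (0.0527) and without the filter on dim probes (0.0504).

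Complexes I, III and IV pass electrons from NADH to oxygen and pump protons across the inner mitochondrial membrane, complex II feeds in electrons from succinate, and complex V uses the proton gradient to make ATP. Most subunits are encoded in the nucleus and imported, while a few core subunits of complexes I, III, IV and V are encoded in mitochondrial DNA. In the kidney the proximal tubule is especially rich in mitochondria, and podocytes, endothelial and mesangial cells of the glomerulus rely on them less.

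Nuclear genes of the chain are classically described as targets of NRF1 and of the ETS family factor GABP, whose sites lie close to the start of transcription. To show the letters at issue, windows of 300 bases, from 250 before to 50 after each start, were taken from RefSeq on GRCm38.p6. They were found for 69 of the 84 members, in 75 windows. The core of the NRF1 motif, GCATGCG on either strand, was present in 14.7% of the members' windows and in 3.6% of all 32851 windows. The ETS motif, CCGGAAG on either strand, was present in 21.3% of the members' windows and 8.9% of all windows. The YY1 motif, AAGATGG on either strand, was present in 17.3% and 6.3%. None of these motifs holds another. The members' windows were also richer in G and C, with a median of 57.3% against 52.7%. The 3 windows below show such matches in genes of complexes IV, III and II, with the NRF1 and ETS letters in capitals. They lie at chr5:115348909-115349208 (Cox6a1, minus strand), chr9:108936398-108936697 (Uqcrc1, plus strand) and chr4:140961021-140961320 (Sdhb, plus strand). No measurement of factor binding was made in this study, so a match describes the letters only.
Cox6a1: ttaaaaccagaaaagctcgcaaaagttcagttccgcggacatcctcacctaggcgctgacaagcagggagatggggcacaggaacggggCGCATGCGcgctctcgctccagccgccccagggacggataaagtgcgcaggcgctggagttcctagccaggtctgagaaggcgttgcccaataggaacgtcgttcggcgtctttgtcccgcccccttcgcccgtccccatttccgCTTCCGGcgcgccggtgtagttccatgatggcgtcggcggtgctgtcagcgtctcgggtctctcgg
Uqcrc1: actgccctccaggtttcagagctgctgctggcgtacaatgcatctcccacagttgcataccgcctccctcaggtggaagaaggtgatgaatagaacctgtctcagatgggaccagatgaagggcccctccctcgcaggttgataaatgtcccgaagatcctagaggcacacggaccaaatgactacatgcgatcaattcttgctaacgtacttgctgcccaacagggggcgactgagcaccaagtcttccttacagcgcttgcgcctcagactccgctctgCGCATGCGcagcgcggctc
Sdhb: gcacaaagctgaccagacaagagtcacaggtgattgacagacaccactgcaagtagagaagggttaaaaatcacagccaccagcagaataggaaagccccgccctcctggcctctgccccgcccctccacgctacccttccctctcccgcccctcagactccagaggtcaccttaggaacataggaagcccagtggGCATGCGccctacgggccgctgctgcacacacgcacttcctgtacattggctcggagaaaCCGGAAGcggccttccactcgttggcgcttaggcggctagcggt

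Levels are given as log2 of the array's processed signal minus that array's 75th percentile, so 0 is that percentile, and differences are Yaa minus control on the log2 scale. Each gene was read from its brightest probe, so levels can be compared between arrays but not between genes. A gene was tested if all 3 arrays of at least 1 group read its probe well above background. Of the 84 members 82 were tested, among 20716 genes in all, and 81 members were well above background on all 6 arrays. Signals at the 75th percentile lay between 261.1 and 432.0, highest in Yaa replicate 3, and 50.5% to 59.7% of spots were well above background, fewest in Yaa replicate 1. All arrays lay on 1 slide, with controls in one column and Yaa in the other, so the column and the strain cannot be told apart. Of 12 macrophage markers 10 were higher in Yaa at a limma adjusted p under 0.05, against 614 of all 20716 genes. Among them C1qa, Ms4a7 and Fcgr1 were well above background on only 1 control array and entered the test through the Yaa arrays. The labels do not say how many mice a population came from, so p-values measure the spread between these pools.

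No respiratory chain member passed the test between Yaa and control glomeruli. None of the 82 reached an adjusted p of 0.05 in limma with Benjamini-Hochberg adjustment over all genes tested, against 3.81% of all genes (614 higher and 176 lower in Yaa). The smallest adjusted p of a member was 0.140, for Cox6a2. Without adjustment, 8 of 82 members had p under 0.05, against 16.1% of all genes. With a variance trend in limma this comparison turned round, at 20 of 82 members against 17.1% of all genes. The fitted difference was nevertheless below 0 for 78 of 82 members, against 66.5% of all genes. Its median was -0.20 against -0.11 over all genes. As signal, the members' median was 12.6% below control and that of all genes 7.5% below. All 3 Yaa arrays lay below all 3 controls for 22 of 82 members, or 26.8%, against 17.4% of all genes, and all 3 lay above for Cox6a2 alone. In these bulk samples fewer cells of a type and less RNA per cell cannot be told apart. Without Yaa replicate 1 the median over the members was -0.08 and that over all genes -0.11.

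The 95% intervals bound what these arrays could miss. For 78 of the 82 members the interval lay within a 2-fold change in either direction, that is within 1 on the log2 scale, and the median distance from estimate to bound was 0.35. The intervals that reached further were those of Cox4i2, Cox6a2, Cox8b and Cox5a, of which Cox5a had the widest, at 1.22 to either side.

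**Figure D1:**
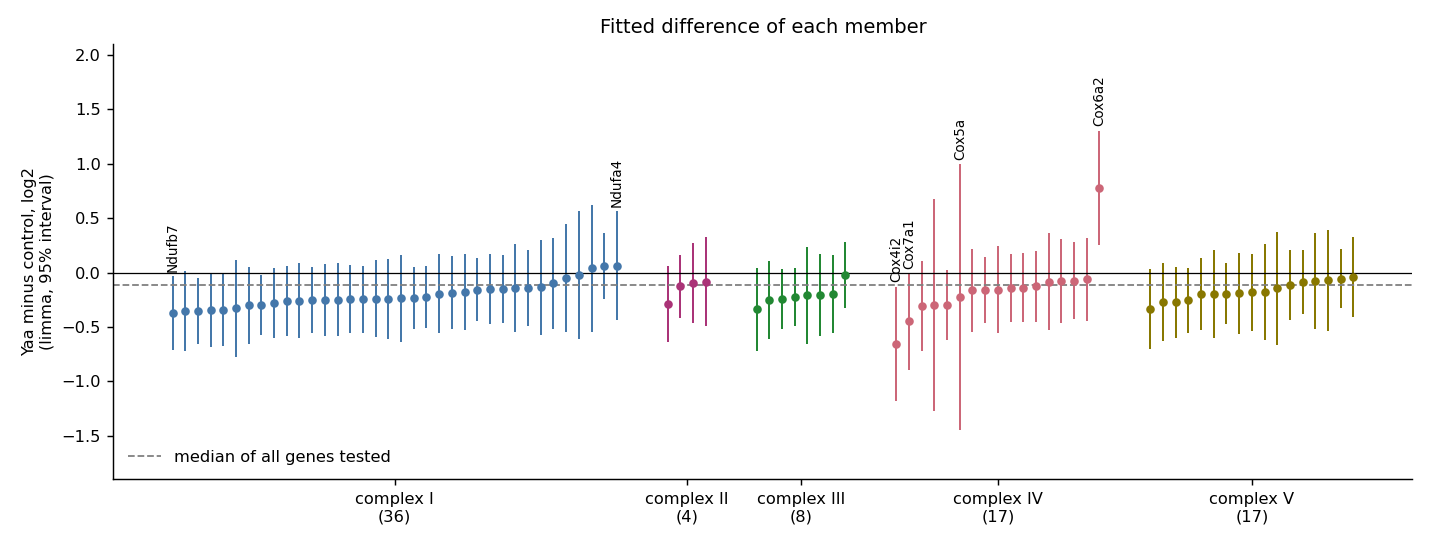
Fitted difference of each of the 82 tested members (Yaa minus control, log2, limma) by complex, sorted within each, with 95% intervals as vertical lines; the dashed line is the median of all genes tested, -0.11. Nearly all points sit between 0 and -0.40, Cox4i2 is lowest at -0.65 and Cox6a2 highest at 0.78.

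Complex I, the NADH dehydrogenase and point of entry of most electrons, had a median of -0.24. The difference was below 0 for 33 of 36 genes, or 91.7% against 66.5% of all genes, and all Yaa arrays lay below all controls for 13, or 36.1% against 17.4%. Ndufb7, an accessory subunit of the membrane arm, had the lowest difference. Its level was 6.70, 6.84 and 6.55 in controls and 6.36, 6.45 and 6.16 in Yaa. The groups did not overlap, and the difference was -0.37 ± 0.14 (SE, n = 3 per group, limma adjusted p = 0.269). The accessory subunit Ndufa5 was at 6.61, 6.72 and 6.45 in controls and at 6.24, 6.28 and 6.21 in Yaa. These groups did not overlap either, and the difference was -0.35 ± 0.13 (limma adjusted p = 0.242, the smallest in complex I). Ndufv3, Ndufb10 and Ndufs5, also accessory, had differences of -0.35, -0.34 and -0.29, each with groups that did not overlap and each with an unadjusted p under 0.05 that did not hold after adjustment. With Ndufb7 and Ndufa5 these made 5 of 36 genes of complex I at an unadjusted p under 0.05 in limma, against 16.1% of all genes.

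The 7 nuclear core subunits, which carry the flavin and the iron-sulfur clusters, had a median of -0.24, close to the -0.24 of the 29 accessory subunits. Ndufs7, a core subunit holding the last cluster before ubiquinone, was lowest among them, with 6.19, 6.26 and 5.99 in controls and 5.64, 6.02 and 5.72 in Yaa. Yaa replicate 2 reached into the control range, and the difference was -0.36 ± 0.15 (limma adjusted p = 0.324). Ndufs1, the largest core subunit, was at 3.93, 3.96 and 4.14 in controls and at 3.91, 3.81 and 3.84 in Yaa, which left a narrow gap between groups and a difference of -0.16 ± 0.12. At the other end Ndufs8, a core subunit with iron-sulfur clusters, was at 0.04 ± 0.25, Ndufc2 at 0.06 ± 0.13 and Ndufa4 at 0.07 ± 0.21. Ndufa4, named for complex I, is now assigned to complex IV, and without it the median of complex I was also -0.24. Ndufs8 ranged from 1.40 in Yaa replicate 1 to 2.30 in Yaa replicate 3, with all controls between them.

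Complex II, succinate dehydrogenase, is encoded wholly in the nucleus, and its 4 genes had a median of -0.11, equal to that of all genes to this precision. Sdha, the flavin subunit that oxidises succinate, was at 3.78, 3.73 and 3.91 in controls and at 3.46, 3.78 and 3.90 in Yaa, a difference of -0.09 ± 0.15. Sdhb, the iron-sulfur subunit, was at 6.16, 6.10 and 6.02 in controls and at 5.87, 6.05 and 5.99 in Yaa, a difference of -0.12 ± 0.12. In both genes Yaa replicate 1 was the low array and the other Yaa arrays lay in or close to the control range. The other 2 genes encode the membrane anchors that bind ubiquinone. Sdhc was at 4.06, 4.05 and 3.80 in controls and at 3.49, 3.81 and 3.75 in Yaa, a difference of -0.29 ± 0.15. Sdhd was at 3.66, 3.64 and 3.52 in controls and at 3.22, 3.55 and 3.80 in Yaa, a difference of -0.08 ± 0.17. Yaa replicate 3 was thus the highest of the 6 arrays for Sdhd. For none of the 4 genes were the groups apart, against 25.2% of all genes in either direction.

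Complex III, the cytochrome bc1 complex, had a median of -0.22 over 8 genes, all below 0 except that Uqcrfs1 turned positive under quantile normalization and median scaling and without control replicate 3 or Yaa replicate 1. Uqcr11, a small accessory subunit, was lowest, at 6.28, 6.35 and 6.34 in controls and 5.86, 6.28 and 5.81 in Yaa. Yaa replicates 1 and 3 lay apart from the controls and replicate 2 did not, and the difference was -0.34 ± 0.16 (limma adjusted p = 0.364). Uqcrc2, a core protein on the matrix side, was at 4.91, 4.95 and 4.83 in controls and at 4.63, 4.72 and 4.61 in Yaa, groups that did not overlap, with a difference of -0.24 ± 0.12. Uqcrb, which takes part in ubiquinone binding, was the only other gene of complex III with groups apart, at -0.23 ± 0.11. All Yaa arrays thus lay below all controls for 2 of 8 genes, or 25.0% against 17.4% of all genes. Uqcrq, Uqcr10 and Uqcrh were at -0.25, -0.21 and -0.20. Uqcrfs1, the Rieske iron-sulfur protein, stood at the top of the complex with -0.02 ± 0.13, and its 6 arrays lay between 3.36 and 3.60 with the groups mixed.

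Complex IV, cytochrome c oxidase, held the extremes at both ends, all of them in tissue-limited isoforms. Its median was -0.16 over 17 tested genes. The 11 widely expressed subunits without the isoforms had a median of -0.14, between -0.30 for Cox8a and -0.06 for Cox7a2l, and each was lowest on Yaa replicate 1. Cox8a was the only one of these with groups apart, at 7.77, 7.78 and 7.68 in controls and 7.33, 7.64 and 7.37 in Yaa. All Yaa arrays thus lay below all controls for 9.1% of the 11, against 17.4% of all genes. Cox5a, a subunit on the matrix face, spread most widely of all members, at 4.44, 4.35 and 4.81 in controls and 3.05, 4.73 and 5.14 in Yaa. The lowest and the highest of its 6 arrays were both Yaa, and the 95% interval of its difference ran from -1.45 to 1.00.

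The tissue-limited isoforms replace a widely expressed partner in certain cells, Cox4i2 in lung, pericytes and other oxygen-sensing cells, and Cox6a2, Cox7a1 and Cox8b in heart and skeletal muscle. The probes that read them share little sequence with those of their partners, with a longest common run of 7 bases for Cox4i1 and Cox4i2, 4 for Cox6a1 and Cox6a2 and 6 for Cox7a1 and Cox7a2. A stretch of 30 bases is shown for each of these 6 probes, with a polyadenylation signal in capitals where the probe held one. Such a signal, AATAAA on the probe's own strand, was in 30 of the 84 probes chosen for the members as each gene's brightest, or 35.7%, and in 10.1% of all 55681 probes, which were not chosen by brightness.
Cox4i1: attcagggcttctccgccaagtgggactat
Cox4i2: actcccttctccAATAAAagcagcctgctt
Cox6a1: cgtgtctcctttcctcagatggcgaccatt
Cox6a2: ggctctgagagcccctgaggttccagtgga
Cox7a1: tgactctggggggcactgcctactgcttat
Cox7a2: ttaactgctgccAATAAAgcaatccttaac

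The Cox4i2 probe lay on mm9 at chr2:152590711-152590770 (plus strand). Cox4i2 was at 0.67, 0.97 and 0.40 in controls and at 0.28, 0.14 and -0.34 in Yaa. The Yaa arrays were all below the controls, with replicate 3 lowest, and the difference was -0.65 ± 0.22 (limma adjusted p = 0.208). Its widely expressed partner Cox4i1 was at 6.50, 6.59 and 6.40 in controls and at 6.07, 6.61 and 6.34 in Yaa, with overlapping groups and a difference of -0.16 ± 0.17. Cox7a1 was at 0.91, 1.17 and 0.81 in controls and at 0.22, 0.78 and 0.54 in Yaa. Its groups were apart by a small margin, and the difference was -0.45 ± 0.19 (limma adjusted p = 0.309), while Cox7a2 was at -0.08 ± 0.15 and Cox7a2l, which acts in supercomplex assembly, at -0.06 ± 0.16. Cox6b2, known from testis, was at -0.31 ± 0.18 and Cox6b1 at -0.08 ± 0.16. Cox8b was well above background on 5 of the 6 arrays, at -2.48, -2.63 and -3.25 in controls and -4.00, -2.67 and -2.58 in Yaa, and its difference of -0.30 ± 0.41 rested on Yaa replicate 1.

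Cox6a2 was the only member with all Yaa arrays above all controls. The level was -2.28, -2.43 and -2.29 in controls and -2.04, -1.22 and -1.41 in Yaa, so that replicate 1 stood just above the controls and the others well above them. The difference was 0.78 ± 0.22 (limma adjusted p = 0.140), and without Yaa replicate 1 it was 1.02 and passed, with a limma adjusted p of 0.0154. Its partner Cox6a1 was at 8.20, 8.12 and 8.10 in controls and at 7.68, 8.14 and 8.11 in Yaa, a difference of -0.16 ± 0.16. The Cox6a2 probe lay on mm9 at chr7:135349160-135349219 (minus strand). In the order of protein-coding genes on GRCm38.p6 the gene sits next to Itgad, Itgax and Itgam, which encode integrin chains of myeloid cells. These neighbours were looked up after the values were seen. Itgax rose by 4.36 (limma adjusted p = 0.000441). Itgad did not stand well above background in the controls and was at least 16.1-fold higher in Yaa (limma adjusted p = 0.00109), while Itgam was at -0.50 (limma adjusted p = 0.520), and at 0.39 with the mean of its probes (0.269). On the other side of Cox6a2 the genes 9130023H24Rik and Armc5 were at -0.40 and -0.10. Over the 12 macrophage markers the median difference was 3.88, and their median relative to the control mean was 3.25, 3.67 and 4.75 in Yaa. Their summed signal, on the log2 scale, was 7.17 to 7.48 in controls and 7.95 to 8.13 in Yaa, and much of it came from Itgam, the brightest probe of the list, which was at 7.28, 7.19 and 6.94 in controls and at 7.33, 6.73 and 5.86 in Yaa. Whether the macrophage markers or the neighbouring genes have a part in the Cox6a2 values was not tested.

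**Figure D2:**
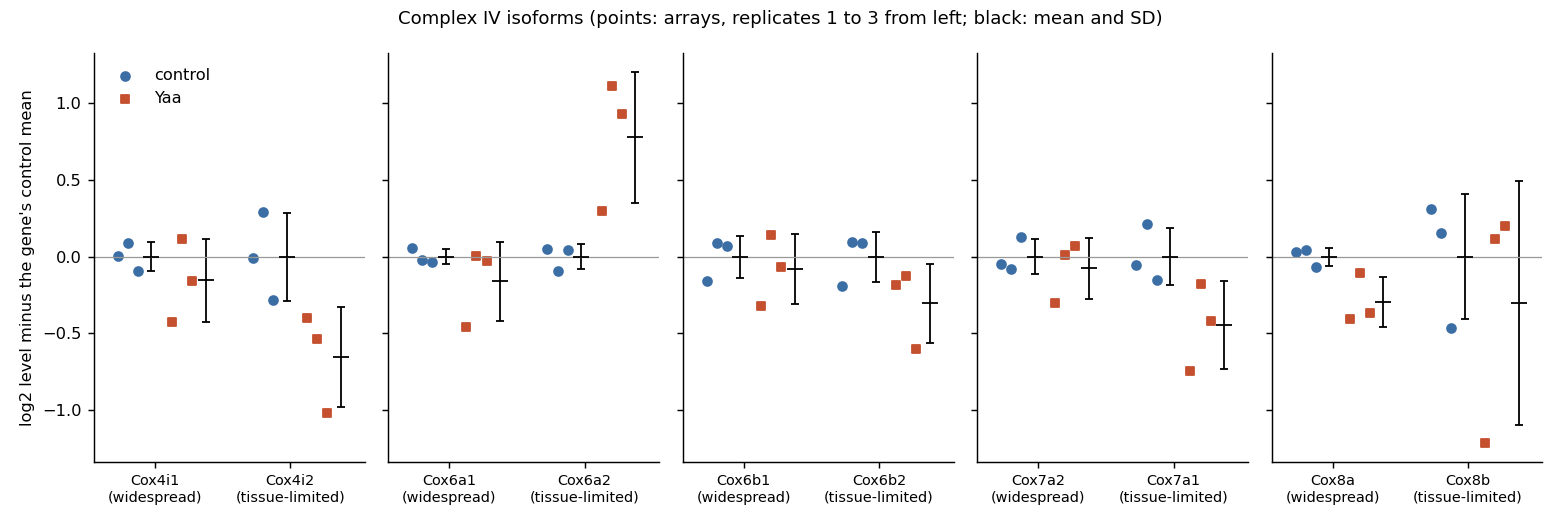
Level of 5 pairs of complex IV isoforms as log2 minus the gene's control mean; circles are the 3 control arrays, squares the 3 Yaa arrays, in replicate order from the left, and black marks give mean and SD. Cox6a2 sits above 0 on all Yaa arrays and Cox4i2 and Cox7a1 below their controls, while the widely expressed partners overlap except Cox8a.

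Members of complex IV without a test were Cox7b2 and Cox8c, isoforms known from testis. Cox8c was well above background on no array. Cox7b2 was well above background on 2 arrays, control replicates 2 and 3, and on no Yaa array. Its signal was at -5.96, -3.43 and -3.84 in controls and at -5.54, -6.31 and -6.42 in Yaa, so control replicate 1 lay within the Yaa range.

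Complex V, ATP synthase, had a median of -0.18. All Yaa arrays lay below all controls for 4 genes, or 23.5% against 17.4% of all genes. All 17 genes were below 0, against 66.5% of all genes, and 14 were under quantile normalization, 16 under median scaling, 16 under normexp correction and 13 without Yaa replicate 1. The catalytic F1 head was represented by 5 genes with a median of -0.18 and no gene with groups apart. Atp5b, the catalytic beta subunit, was at 6.85, 6.79 and 6.92 in controls and at 6.43, 6.81 and 6.78 in Yaa, a difference of -0.18 ± 0.15. Atp5c1, the rotating gamma subunit, was at -0.07 ± 0.20. The 3 genes of the c ring make the same mature protein with different import sequences. Atp5g1 was lowest of the complex, at 6.41, 6.34 and 6.24 in controls and 5.74, 6.18 and 6.07 in Yaa, groups that did not overlap, with a difference of -0.33 ± 0.15 (limma adjusted p = 0.349). Atp5g2 was at -0.11 ± 0.14 and Atp5g3 at -0.18 ± 0.19, each with overlapping groups, and the differences between the 3 genes were not tested. In the peripheral stalk, which holds the head still, Atp5o was at -0.27 ± 0.15, Atp5h at -0.26 ± 0.13 and Atp5f1 at -0.04 ± 0.15. Atp5k, a membrane subunit that supports dimers of the enzyme, was at -0.27 ± 0.14 with groups apart.

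The 3 genes taken by name that are not subunits were close to 0. Cox4nb was at -0.08 ± 0.19, Atp5s at -0.08 ± 0.19 and Atp5sl at -0.06 ± 0.11. Without them the median of the other 79 tested members was -0.20.

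Probes of 1 gene mostly gave like values. Of the 122 member probes that passed the filter 0 reached an adjusted p of 0.05 over all probes (limma, smallest 0.153) and 114 had a difference below 0. Among the 28 members with more than 1 such probe the range between probes had a median of 0.06. In Sdhb, Cox7a2l and Cox7c the probes differed in sign, and in each of these the dimmest probe was the one above 0. For Atp5j2 and Atp5l the chosen probe was placed on another chromosome than the gene, so reads of a near-identical copy cannot be told apart there.

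Most of the members' distance from the controls lay in 1 Yaa array. The median over the 82 members of the level minus the gene's control mean was 0.02, 0.05 and -0.08 in controls and -0.39, -0.05 and -0.16 in Yaa. Yaa replicates 2 and 3 thus lay close to control replicate 3 and replicate 1 well below. Yaa replicate 1 was the lowest of the 6 arrays for 67 of 82 members, or 81.7%, against 24.7% of all genes. The same array was lowest in each complex, with medians of -0.39, -0.37, -0.44, -0.32 and -0.38 for complexes I to V, against -0.09 over all genes. The spread was wider in Yaa than in control for 71 of 82 members, with a median SD of 0.20 against 0.10. The same held for 71.9% of all genes, with a median SD of 0.245 against 0.154. Without Yaa replicate 1 the medians of complexes I to V were -0.17, -0.02, -0.12, -0.02 and -0.07, and the share of members below 0 was 73.2% against 62.3% of all genes.

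**Figure D3:**
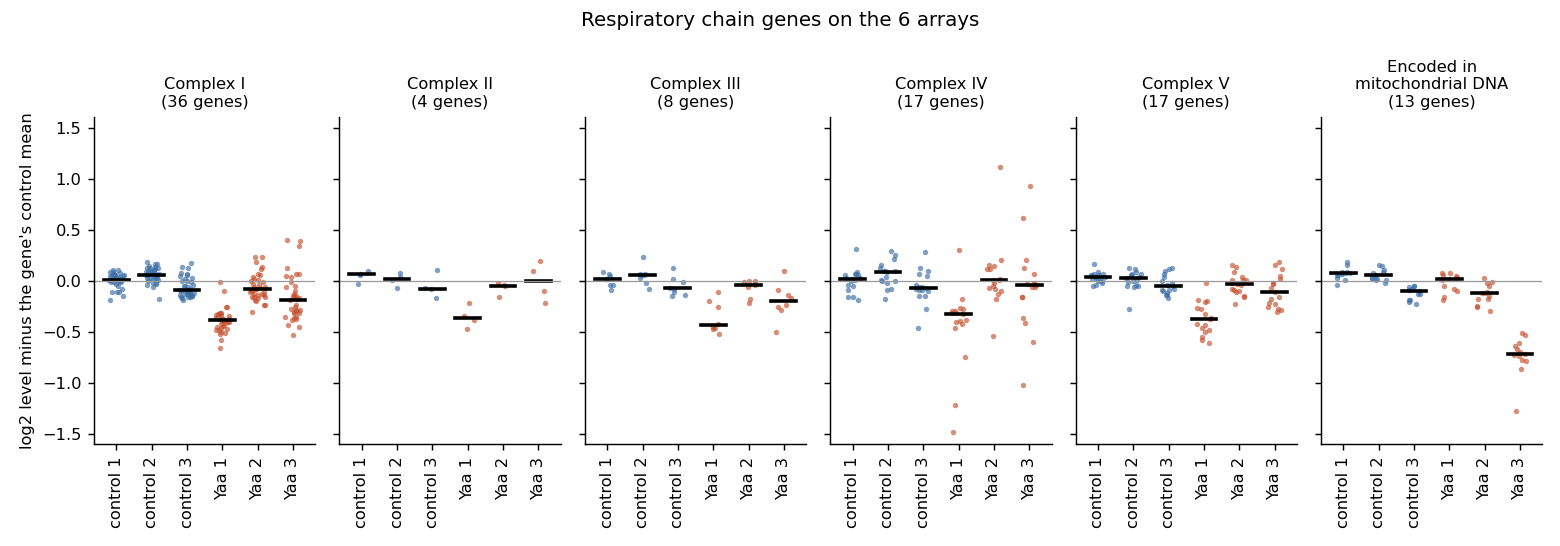
Every tested member on each array, as log2 level minus the gene's control mean, by complex, with the 13 subunits encoded in mitochondrial DNA on the right; each point is a gene and black bars are medians. In all 5 nuclear panels Yaa replicate 1 is lowest, and in the mitochondrially encoded panel Yaa replicate 3 is lowest at -0.72.

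Markers of kidney tubules were present in these glomerular preparations. Of 16 proximal tubule markers 15 were tested, and all 15 were lowest on Yaa replicate 1, against 24.7% of all genes. Their summed signal on the log2 scale was 9.48, 9.08 and 8.63 in controls and 7.77, 9.24 and 8.77 in Yaa, a range of 8.63 to 9.48 against 7.77 to 9.24. None passed the test (limma, smallest adjusted p 0.0592), and Slc22a8 was too dim to enter it. An unadjusted p under 0.05 in limma was found for 1 of 15, against 16.1% of all genes. Of 10 tested markers of the loop, distal nephron and collecting duct, 7 were lowest on Yaa replicate 1, against 24.7% of all genes. Of these 10, 1 passed in limma, against 3.81% of all genes. Among the 10 only Slc12a1, the salt transporter of the thick ascending limb, fell by 0.96 (limma adjusted p = 0.0266), a call lost without any 1 of the controls, Yaa replicate 2 or Yaa replicate 3 (adjusted p of 0.0542 to 0.125) and without the filter on dim probes (0.117). Slc12a1 was lowest on Yaa replicate 2, at 1.32, 1.23 and 1.23 in controls and 0.57, 0.03 and 0.33 in Yaa. The summed signal of the 10 ran from 6.47 to 6.63 in controls and from 5.76 to 6.33 in Yaa. Podocyte markers differed less between Yaa arrays, with medians of -0.26, -0.28 and -0.19 relative to the control mean. Of the 8 tested 0 passed in limma and 2 had an unadjusted p under 0.05, against 16.1% of all genes. Of this list Nphs1 and Magi2 were too dim to enter the test. The part of tubule content in the members' values was not tested.

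**Figure D4:**
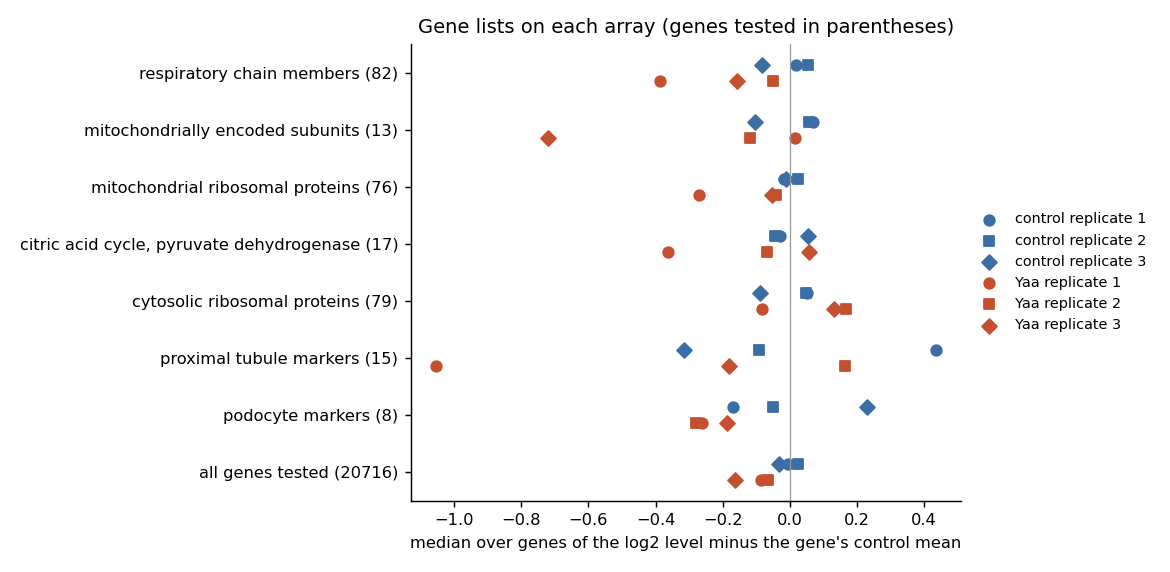
Median over the genes of each list of the log2 level minus the gene's control mean, for each of the 6 arrays (blue control, red Yaa; circle, square and diamond are replicates 1, 2 and 3). Respiratory chain members, mitochondrial ribosomal proteins, citric acid cycle genes and proximal tubule markers are lowest on Yaa replicate 1, whereas the mitochondrially encoded subunits are lowest on Yaa replicate 3.

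The 13 subunits encoded in mitochondrial DNA, which the name rule does not take, were low on another array than the nuclear members. All 13 were tested, 0 passed (limma, 0 at an unadjusted p under 0.05) and all had a difference below 0 under each scaling, with a median of -0.28. Their median relative to the control mean was 0.07, 0.06 and -0.11 in controls and 0.02, -0.12 and -0.72 in Yaa. Yaa replicate 3 was the lowest of 6 arrays for all 13 genes, against 35.3% of all genes, and Yaa replicate 1 for none, whereas the nuclear members were lowest on replicate 1 in 67 of 82 cases and on replicate 3 in 10. COX1, the catalytic subunit of complex IV, was at 10.44, 10.47 and 10.17 in controls and at 10.44, 10.34 and 9.08 in Yaa. CYTB, the core of complex III, was at 9.71, 9.66 and 9.53 in controls and at 9.71, 9.51 and 8.85 in Yaa. In both, Yaa replicate 1 was at the control level and replicate 3 far below it. ND6, the only one of them read from the other strand of mitochondrial DNA, was lowest on Yaa replicate 3 as well, at 1.84, 1.66 and 1.47 against 1.71, 1.68 and 1.12. Without Yaa replicate 3 the median was -0.10 with 10 of 13 below 0, COX1 at 0.03 and ND6 at 0.04, and without Yaa replicate 1 it was -0.44. Other values also stood out on Yaa replicate 3, which was the brightest array by its 75th percentile. The 5 T cell markers had medians relative to the control mean of 1.28, 0.21 and 3.72 in Yaa, and a summed log2 signal of 1.53 to 2.04 in controls and 1.91 to 3.91 in Yaa. None of the 5 passed (limma, 2 at an unadjusted p under 0.05, against 16.1% of all genes). The 9 endothelial markers had medians of -0.19, -0.15 and -0.50 in Yaa, and 5 of the 9 were lowest on replicate 3. Their summed log2 signal was 9.27 to 9.51 in controls and 8.65 to 9.13 in Yaa, and the median difference was -0.33. Of the 9 markers 0 passed in limma and 3 had an unadjusted p under 0.05, against 16.1% of all genes. The part of these in the values of the mitochondrially encoded genes was not tested.

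Among genes that serve the chain without being members, few passed. The unadjusted counts in this paragraph stand against 16.1% of all genes (limma). Of 8 tested chain genes with other names (cytochrome c, cytochrome c1 and the like) 0 passed (limma, 1 at an unadjusted p under 0.05), with a median of -0.10. Ndufa4l2, a hypoxia-induced relative of Ndufa4 found in pericytes, was the lowest, at 4.32, 4.56 and 4.09 in controls and 3.88, 3.84 and 3.27 in Yaa. Its groups were apart with replicate 3 lowest, as for Cox4i2, and the difference was -0.66 ± 0.21 (limma adjusted p = 0.193). Of 8 mesangial and smooth muscle markers 0 passed (limma, 2 at an unadjusted p under 0.05), with a median of -0.28. Their medians relative to the control mean were -0.43, 0.01 and -0.33 in Yaa, and their summed log2 signal was 7.80 to 7.89 in controls and 7.42 to 7.88 in Yaa. Of the 8 markers 5 were lowest of the 6 arrays on Yaa replicate 1 (24.7% of all genes) and 3 on Yaa replicate 3 (35.3%). Pdgfrb, a receptor of mesangial cells and pericytes, was among the latter, at 5.26, 5.12 and 5.28 in controls and 5.48, 4.44 and 3.99 in Yaa. On Yaa replicate 1 Pdgfrb lay above every control, whereas Ndufa4l2 and Cox4i2 lay below every control. The part of mesangial cells and pericytes in the Ndufa4l2 and Cox4i2 values was not tested. Of 26 assembly factors 0 passed (limma, 2 at an unadjusted p under 0.05), with a median of -0.13, and Ndufaf4, which builds complex I, was lowest at -0.44 ± 0.13 (limma adjusted p = 0.147). Hccs, which attaches heme to cytochrome c and lies in the copied X segment, was at -0.19 (limma adjusted p = 0.673).

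Regulators of mitochondrial biogenesis held 1 of 19 genes that passed, against 3.81% of all genes, and 5 of 19 at an unadjusted p under 0.05, against 16.1%. The gene that passed was Esrrb, an estrogen-related receptor. It was at 1.88, 1.80 and 1.81 in controls and at 1.00, 1.29 and 1.18 in Yaa, and fell by 0.67 (limma adjusted p = 0.0413). That call was lost with median scaling (adjusted p = 0.104), with replicate number as a block (0.0925), without the filter on dim probes (0.176) and with any 1 array left out (0.0589 to 0.198). Ppargc1a, the coactivator PGC-1alpha, was at 1.99, 1.80 and 1.82 in controls and at 1.11, 1.26 and 1.38 in Yaa, a difference of -0.61 ± 0.13 just outside the threshold (limma adjusted p = 0.0617). Esrrg, another estrogen-related receptor, was at -1.34, -1.78 and -1.56 in controls and at -2.29, -2.12 and -2.25 in Yaa, also just outside (difference -0.66 ± 0.15, limma adjusted p = 0.0746). In all 3 genes each Yaa array lay below each control. Ppargc1a passed with a variance trend (0.0382) and with scaling over spots (0.0472), and Esrrg with the mean of its probes (0.0472). Nrf1 was at -0.34 ± 0.13 (limma adjusted p = 0.272, unadjusted 0.0375), with each Yaa array below each control. Gabpa was at -0.04 ± 0.20 and Yy1 at -0.10 ± 0.12, so these factors, whose motifs were searched, did not pass. Esrra, for which no motif was searched, was at -0.03 ± 0.14.

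Other mitochondrial lists likewise held no gene that passed. The unadjusted counts given for them stand against 16.1% of all genes (limma). The citric acid cycle and pyruvate dehydrogenase list had 0 of 17 (limma, 2 at an unadjusted p under 0.05) with a median of -0.13, membrane, carrier and import genes 0 of 23 (1 unadjusted) with -0.10, fatty acid oxidation 0 of 15 (1 unadjusted) with -0.12, and mitochondrial ribosomal proteins 0 of 76 (2 unadjusted) with -0.13. Cytosolic ribosomal proteins, also abundant and nuclear, had 0 of 79 (0 unadjusted) and a median of 0.08, above that of all genes. Among antioxidant and uncoupling genes 0 of 10 passed (3 unadjusted), with a median of -0.15 and 6 of 10 below 0. The 3 went both ways. The uncoupling proteins Ucp3 and Ucp2 were at 0.79 ± 0.23 and 0.61 ± 0.21 (limma adjusted p = 0.157 and 0.219) and Txn2 at -0.43 ± 0.15 (0.210). In glycolysis 2 of 19 passed, against 3.81% of all genes (limma, 4 at an unadjusted p under 0.05, against 16.1%). The median of this list was -0.07, with 10 of 19 below 0 against 66.5% of all genes. Both that passed were hexokinases whose control signals were never well above background, so they entered the test through the Yaa arrays alone. Hk2 was at least 4.16-fold higher in Yaa (limma adjusted p = 0.00922) and Hk3, the hexokinase of myeloid cells, at least 9.07-fold higher (limma adjusted p = 0.0343), the latter not past the threshold without any 1 control array (0.116 to 0.135), without the filter on dim probes (0.119) or under normexp correction, where the fitted difference was 1.45 in place of 3.71 (0.180). Ldhb, the lactate dehydrogenase of oxidative tissue, was at -0.73 ± 0.18 just outside the threshold (limma adjusted p = 0.0889) and passed with a variance trend (0.0468).

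The genes whose level followed the members' mean most closely over the 6 arrays were Gm10734, Vsig10l, Pfdn2, Vegfb and Pigh, with Pearson's r from 0.995 to 0.999. When the arrays farthest from the median of the members' mean, Yaa replicate 1 and control replicate 2, were left out, r ran from 0.950 to 0.991. The values share the arrays and their scaling, the genes were picked as the highest of 20716, and with so few arrays the order among them is a description only.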

How the data were processed

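Total RNA of glomeruli was labelled with Cy3 and read on 1-colour Agilent mouse arrays, 1 per pool. The deposited values are linear signal intensity per spot, which the authors obtained with Agilent Feature Extraction, version 10.7.3.1 per the file headers and 9.5.3 per the submitters' processing notes. The processed signal intensity was background-subtracted within each array, with low spots replaced by surrogate values, and was not normalized between arrays, per the file headers. The file headers place the probes on mm9.

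For this report 3671 control spots and 121 to 166 outlier spots per array were left out, log2 was taken, spots of a probe were averaged and each array's 75th percentile over probes was subtracted. The filter kept 28598 probes: on every array of at least 1 group, a share of 0.5 or more of the spots had to be flagged well above background. A gene was its brightest kept probe. Yaa and control were compared by two-sided tests with limma 3.58.1 (R 4.3.3), with 4 residual and 2.84 prior degrees of freedom after eBayes, adjusted by Benjamini-Hochberg over 20716 genes with a threshold of 0.05, after the script was tested on simulated data. No member's fit lacked an array and no spot was saturated. Lower bounds for genes not well above background in a group set the bright group's mean against, per array, the higher of the lowest level well above background and the gene's own. Ranges after ± are standard errors. The number of arrays limits the precision.

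Named are the 3 highest and 3 lowest members of each complex, isoforms of complex IV and the c ring, the Sdh genes, up to 4 genes of each other list with the smallest adjusted p, the 5 genes most like the members' mean and, after their values were seen, others singled out as examples. Some results are not reported here. The members and lists were chosen with earlier results of these data known. Current symbols came from RefSeq genes on GRCm38.p6, which held all 84 members.

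Same-numbered arrays deviated together from their group means (correlations of 0.126, 0.205 and 0.218, against -0.194 to 0.028 for other pairs), a pairing taken from the replicate numbers, equal to the slide rows, and not from a stated design.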

Additional observations from a re-analysis of the deposited data

How the results depend on the processing

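The absence of a member past the threshold held under quantile normalization, median scaling, normexp correction, no filter on dim probes, the mean of a gene's probes, the replicate block, a variance trend and the 75th percentile over spots (the last chosen after the data were seen). With 1 array left out the count was 0 to 1. The 1 was Cox6a2 without Yaa replicate 1, and Cox7b2 without control replicate 1, where it entered the fit only because the array left out was the control at the Yaa level. The members' median stayed below 0 in all 14 alternatives, from -0.14 (quantile) to -0.23 (over spots), and from -0.282 to -0.080 with 1 array left out. The median of all genes was below 0 in each of them too, from -0.065 (no filter) to -0.144 (over spots). The members' median was the lower of these 2 except without Yaa replicate 1, where it lay 0.028 above that of all genes. The count of all genes called was 396 without the filter, in which more genes were tested, 618 with the replicate block and 399 to 1027 with 1 array left out. The block ended the call of Esrrb and changed no member's call. The count of members at an unadjusted p under 0.05 in limma ran from 1 to 20 over the 14 alternatives. It was 1 without control replicate 2 or Yaa replicate 3 and 20 with the variance trend.

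Of the 70 genes followed under each setting 22 changed sign under some setting, none of them past the threshold, and the cause was not tested. Quantile normalization put Atp5c1 at 0.00023, Atp5sl at 9.7e-05, Atp5f1 at 0.013, Esrra at 0.043 and Uqcrfs1 at 0.039. Median scaling put Atp5f1 at 0.00079, Esrra at 0.016 and Uqcrfs1 at 0.021, and normexp put Atp5f1 at 0.031 and Esrra at 0.014. Averaging probes put Cox7a2l at 0.050, Sdhb at 0.017 and Itgam at 0.385. With 1 array left out the ranges were -0.184 to 0.135 for Atp5c1, -0.137 to 0.081 for Atp5f1, -0.275 to 0.012 for Atp5g3, -0.218 to 0.0047 for Atp5s, -0.650 to 0.029 for COX1, -0.187 to 0.067 for Cox4nb, -0.643 to 0.404 for Cox5a, -0.193 to 0.038 for Cox6b1, -0.146 to 0.038 for Cox7a2, -0.174 to 0.046 for Cox7a2l, -0.551 to 0.159 for Cox8b, -0.085 to 0.063 for Esrra, -0.166 to 0.156 for Gabpa, -0.255 to 0.036 for ND6, -0.099 to 0.262 for Ndufa4, -0.139 to 0.313 for Ndufs8, -0.183 to 0.034 for Sdha, -0.221 to 0.069 for Sdhd and -0.077 to 0.040 for Uqcrfs1. Ndufa4 and Ndufs8 turned negative without Yaa replicate 3, among others, COX1 and ND6 positive without Yaa replicate 3, Atp5s without control replicate 1 and Gabpa without control replicate 3 or Yaa replicate 2. The other genes with a range that crosses 0 were positive without Yaa replicate 1. Dim isoforms such as Cox8b rest on signals near background.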
